A study of Mus musculus with 8 samples.

Results

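Gpt2 and 7 partner genes of glutamate and alanine exchange were followed in cardiac fibroblasts of the mouse. Gpt2 was picked from the comparison of these same libraries, because it was 1 of the 2 genes with an adjusted p under 0.05 there, and its levels are therefore given as a description. The others were listed by their roles as enzymes and carriers of the same amino acids, with results of these data already known. The 8 genes were found by symbol among 54532 genes of the deposited table. Cells sorted for PDGFRα, a surface receptor of fibroblasts, came from infarcts taken 7 days after a coronary artery was occluded. The 4 libraries labelled FTbR2KO came from mice in which fibroblasts were meant to lose TbR2, the TGF-β type 2 receptor encoded by Tgfbr2. The 4 libraries labelled TbR2fl/fl came from mice with the floxed receptor gene, and the mice of both labels had received tamoxifen. The sources used here do not give the promoter that drove the deletion or the age of the mice.

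Alanine aminotransferases move an amino group between glutamate and pyruvate, giving alanine and α-ketoglutarate. They link the breakdown of glutamine to the pyruvate left by glycolysis, and aspartate aminotransferases do the same with oxaloacetate as part of the malate-aspartate shuttle. Fibroblasts that make collagen draw on glutamate for proline and α-ketoglutarate for hydroxylation.

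The targeted gene was checked first. Tgfbr2 measured 60.0, 58.1, 56.9 and 57.8 FPKM (fragments per kilobase of gene, scaled to the reads of a library) in the libraries labelled FTbR2KO, against 49.6, 40.3, 46.7 and 45.4 FPKM in TbR2fl/fl. It was not lower where the label names its loss, and a level over the whole gene does not show whether an exon was missing, so all directions refer to the libraries as labelled. Depth was 16.1 to 22.9 M reads in FTbR2KO and 21.2 to 28.7 M in TbR2fl/fl. On the first principal component, with 33.0% of the variance, FTbR2KO 1 (-24.4) and TbR2fl/fl 5 (-20.9) stood apart from the other 6 libraries (-0.108 to 19.0). On the second, with 22.7%, FTbR2KO 1, 2 and 3 lay at 6.77, 16.6 and 19.6. There FTbR2KO 4 (-9.05) lay among the TbR2fl/fl libraries (-11.6 to -4.80). All 8 fibroblast markers were tested and their summed level was 11075 to 13455 FPKM in FTbR2KO and 12938 to 14486 FPKM in TbR2fl/fl. The 12 cardiomyocyte markers summed to 3.25 to 6.32 FPKM in FTbR2KO and 4.65 to 5.94 FPKM in TbR2fl/fl. Of these, 10 stayed under 1 FPKM in every library. The 12 macrophage markers summed to 8.38 to 12.7 FPKM in FTbR2KO and 10.3 to 12.8 FPKM in TbR2fl/fl. Of these, 7 stayed under 1 FPKM in every library, Ptprc, Adgre1 and Csf1r among them, while Cd68 averaged 4.60 ± 2.05 FPKM in FTbR2KO and 3.39 ± 1.43 FPKM in TbR2fl/fl and Lyz2 3.89 ± 1.30 FPKM in FTbR2KO and 4.43 ± 0.493 FPKM in TbR2fl/fl. For 8 endothelial markers the sums were 19.7 to 26.0 FPKM in FTbR2KO and 18.6 to 28.6 FPKM in TbR2fl/fl, and most of that was Tek. For 8 mural markers they were 58.5 to 101.9 FPKM in FTbR2KO and 62.5 to 88.5 FPKM in TbR2fl/fl, and all 8 had a higher mean in FTbR2KO. For 8 adipocyte markers they were 1.5 to 4.01 FPKM in FTbR2KO and 0.874 to 2.45 FPKM in TbR2fl/fl. The ranges of all 6 marker sums overlapped between the groups, and none of their tested genes passed the adjusted threshold. Among the fibroblast markers, the collagen genes Col1a1 (3934 ± 424 FPKM in FTbR2KO and 5005 ± 283 FPKM in TbR2fl/fl) and Col1a2 (1553 ± 186 FPKM in FTbR2KO and 1898 ± 70.7 FPKM in TbR2fl/fl) had groups that did not overlap, as had 4.41% of all tested genes, without passing the adjusted threshold. What part any of these cells had in the results was not tested.

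Gpt2 lies on chromosome 8 from 85492576 to 85527560 (GRCm38, plus strand). Its exons merge into 12 blocks over 5 annotated transcripts. They add up to the 5643 bases of the deposited gene length, of which 28.3% is coding, so the level given here sums all transcripts. The 250 bases before its start are shown because Gpt2 is the gene on which the report turns. Those of Got1 are set beside them as an aminotransferase gene that did not pass the test. RefSeq promoters of GRCm38.p6 were matched for 6 of the 8 genes. Capitals mark matches, on either strand, to the GC box GGGCGG, to TGATGNAA (the core of the composite element that ATF4, the regulator of the amino acid stress response, can bind), to the palindromic Smad element GTCTAGAC and to the TATA box TATAAA. Read 5′ to 3′ on each gene's own strand, Gpt2 spans chr8:85492326-85492575 (plus) and Got1 chr19:43524606-43524855 (minus).
Gpt2: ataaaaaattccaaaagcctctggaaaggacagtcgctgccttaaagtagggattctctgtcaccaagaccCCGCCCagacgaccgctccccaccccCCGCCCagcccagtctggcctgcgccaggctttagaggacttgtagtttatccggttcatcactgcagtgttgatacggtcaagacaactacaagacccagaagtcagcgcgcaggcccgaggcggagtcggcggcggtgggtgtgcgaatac
Got1: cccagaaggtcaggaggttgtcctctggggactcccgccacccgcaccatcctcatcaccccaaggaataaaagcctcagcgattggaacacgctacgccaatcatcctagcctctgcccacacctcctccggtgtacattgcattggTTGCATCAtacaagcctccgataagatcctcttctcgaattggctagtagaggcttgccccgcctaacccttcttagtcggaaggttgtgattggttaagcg
The Gpt2 window held 2 GC boxes, which 32.7% of 32851 promoter windows of this length hold at least once, and none of the other 3 motifs. The Got1 window held 1 ATF4 core, found in 3.45% of windows. The Smad palindrome was in none of the 6 windows, against 0.167% of all. These are matches of letters, not binding sites.

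Gpt2, the mitochondrial alanine aminotransferase, was higher in every library labelled FTbR2KO. It measured 6.56, 5.17, 5.37 and 6.23 FPKM in FTbR2KO, against 1.60, 1.12, 1.71 and 1.61 FPKM in TbR2fl/fl. The groups did not overlap: the lowest FTbR2KO library, at 5.17 FPKM, lay far above the highest TbR2fl/fl library, at 1.71 FPKM. The means were 5.83 ± 0.669 FPKM in FTbR2KO and 1.51 ± 0.262 FPKM in TbR2fl/fl (SD, n = 4 each), a ratio of means of 3.87. On the scale of log2(FPKM + 1) the difference was 1.45 (SE 0.10), and for low genes this scale gives too small a change. These levels rest on 643, 507, 599 and 803 reads in FTbR2KO and on 265, 179, 197 and 258 reads in TbR2fl/fl. The mean level lay at the 51.6th percentile of tested genes in FTbR2KO and at the 9.79th in TbR2fl/fl. In the whole comparison 2 of 11667 genes were called (0.0171%), Gpt2 and the protamine gene Prm1. The call chose Gpt2 and says nothing further about it. Prm1 averaged 4.09 ± 1.08 FPKM in FTbR2KO and 0.0815 ± 0.0743 FPKM in TbR2fl/fl. It reached the 1 FPKM needed for testing only in FTbR2KO. Without the 2 libraries that stood apart, FTbR2KO 1 and TbR2fl/fl 5, Gpt2 had a log2 fold change of 1.42 and 0 genes were called. Leaving out FTbR2KO 1, 2 or 3 in turn left 1 gene called, and leaving out FTbR2KO 4 left 6. The groups did not overlap for 515 tested genes (4.41%). Gpt2 was the 1 member among them, which follows from the difference that chose it. In bulk RNA, fewer cells of a type and less RNA per cell cannot be told apart.

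No annotated gene of the table overlaps Gpt2. The nearest expressed neighbour is Dnaja2, a co-chaperone gene 10.1 kb downstream on the opposite strand. It averaged 27.4 ± 3.17 FPKM in FTbR2KO and 26.5 ± 3.54 FPKM in TbR2fl/fl, a log2 fold change of 0.050 (SE 0.12). Upstream, at 59.7 kb, 4921524J17Rik averaged 7.23 ± 0.524 FPKM in FTbR2KO and 6.39 ± 0.848 FPKM in TbR2fl/fl. Its log2 fold change was 0.16 (SE 0.096).

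**Figure D1:**
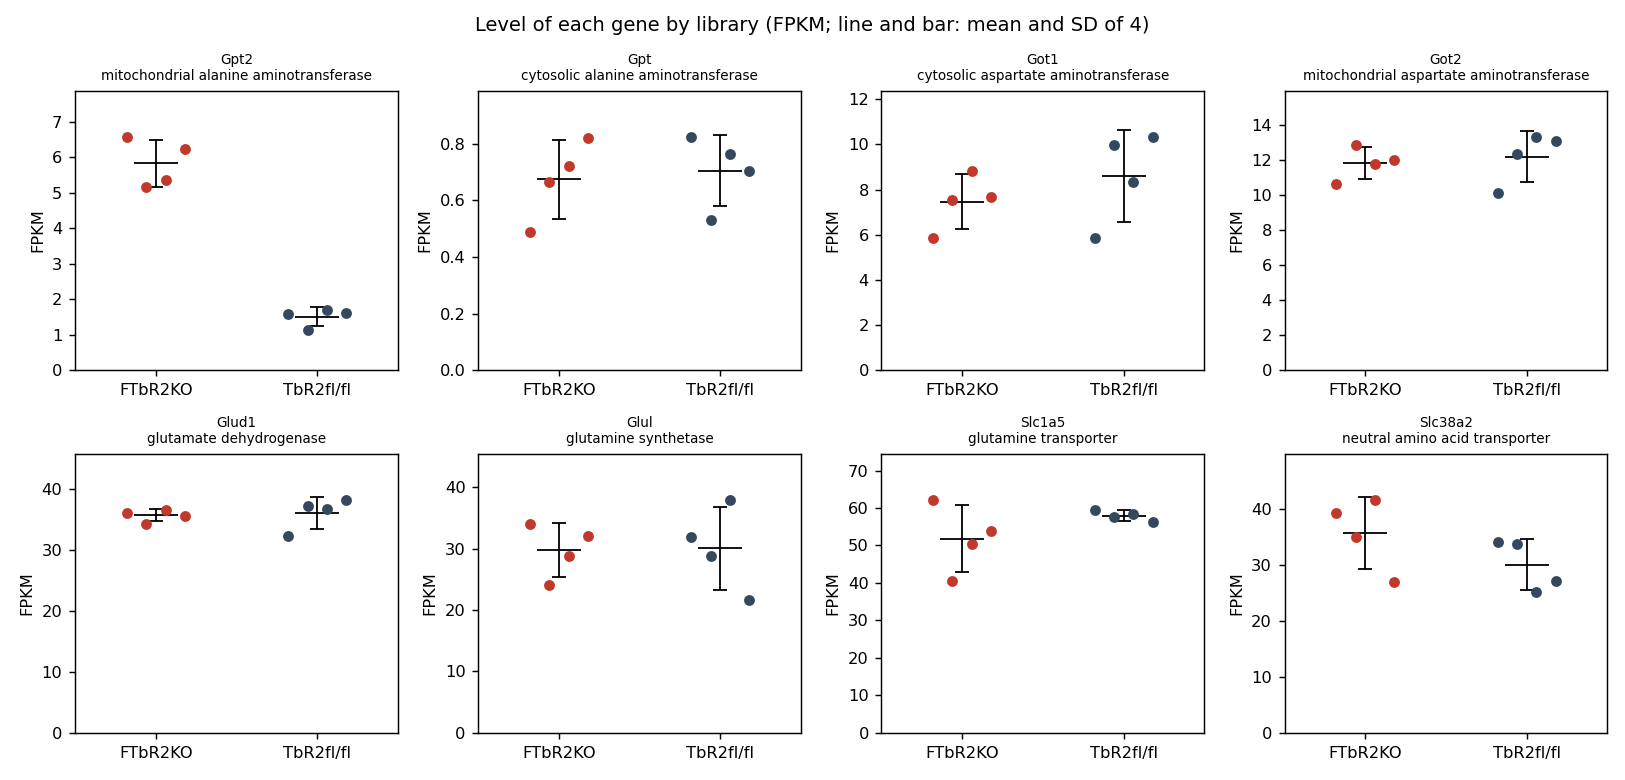
Level of each of the 8 genes in FPKM (y axis, from 0) by labelled group (x axis); points are libraries in the order of their numbers, and the line and bar are the mean and SD of 4. The 4 FTbR2KO points of Gpt2 sit between 5.17 and 6.56 FPKM, above all TbR2fl/fl points, while the groups overlap in the other 7 panels.

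Gpt, the cytosolic alanine aminotransferase, was scarce in both groups. It measured 0.490, 0.665, 0.723 and 0.819 FPKM in FTbR2KO, against 0.822, 0.529, 0.764 and 0.705 FPKM in TbR2fl/fl. The groups overlapped almost fully. Gpt stayed under 1 FPKM in every library, on 25 to 71 reads, and so was not in the fit across all genes. Its mean was 0.674 ± 0.138 FPKM in FTbR2KO and 0.705 ± 0.127 FPKM in TbR2fl/fl (exact permutation p = 0.714, two-sided, n = 4 each). The smallest p that 4 against 4 libraries allow is 0.0286. Since FPKM is per gene length, the 2 aminotransferases can be set side by side. Gpt2 made up 93.1%, 88.6%, 88.1% and 88.4% of their summed level in FTbR2KO, against 66.0%, 68.0%, 69.1% and 69.5% in TbR2fl/fl. So the mitochondrial form had the higher level per gene length in all 8 libraries. These lengths merge the exons of all annotated transcripts, 5 for Gpt2 and 10 for Gpt, and the share depends on them. The shift in its share follows from the values that chose Gpt2.

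Neither aspartate aminotransferase passed the test. Got1, the cytosolic enzyme, measured 5.88, 7.53, 8.81 and 7.65 FPKM in FTbR2KO, against 5.83, 9.99, 8.31 and 10.3 FPKM in TbR2fl/fl. The lowest library of each group was the one that stood apart on the first component. The difference on the log2 scale was -0.17 (SE 0.17, 95% confidence interval -0.55 to 0.21, limma adjusted p = 0.786). With FTbR2KO 1 and TbR2fl/fl 5 both left out it was -0.23 (SE 0.10, limma adjusted p = 0.476), without FTbR2KO 1 alone -0.071 (limma adjusted p = 0.917) and without TbR2fl/fl 5 alone -0.32 (limma adjusted p = 0.372). Got2, the mitochondrial enzyme, measured 10.7, 12.9, 11.8 and 12.0 FPKM in FTbR2KO, against 10.1, 12.3, 13.3 and 13.1 FPKM in TbR2fl/fl. The same 2 libraries were again the lowest of their groups. Got2 differed by -0.038 on the log2 scale (SE 0.099, 95% confidence interval -0.26 to 0.18, limma adjusted p = 0.933). Got2 made up 61.5 ± 3.16% of the summed Got1 and Got2 level in FTbR2KO and 59.0 ± 4.06% in TbR2fl/fl (exact permutation p = 0.343, n = 4 each). Gpt2 had 0.498 ± 0.0918 times the level of Got2 in FTbR2KO and 0.125 ± 0.0275 times in TbR2fl/fl. That shift follows from the values that chose Gpt2. Got2 overlaps 1 other annotated gene, which stayed at or under 0.0382 FPKM.

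**Figure D2:**
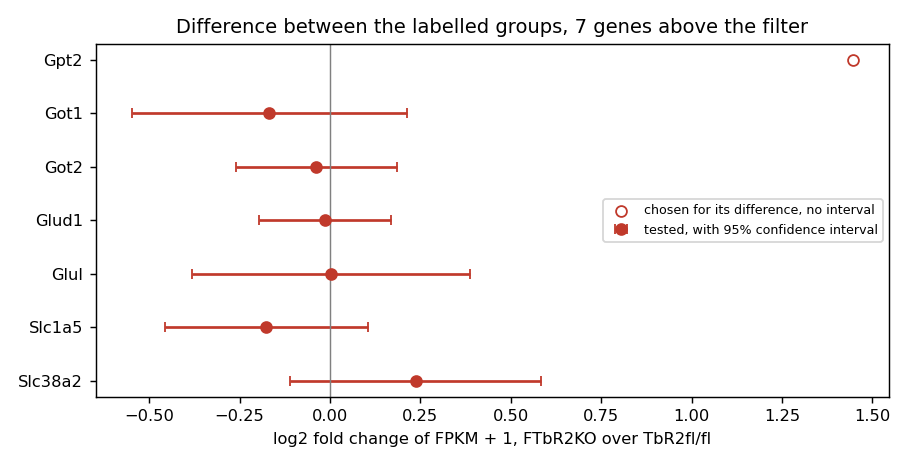
Log2 fold change of FPKM + 1 in FTbR2KO over TbR2fl/fl (x axis) for the 7 genes above the filter (rows); filled points carry 95% confidence intervals and the open point is Gpt2. The 6 intervals all include 0 and end at or below 0.58, while Gpt2 lies at 1.45.

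Glutamate dehydrogenase and glutamine synthetase act on glutamate itself. Glud1, the mitochondrial glutamate dehydrogenase that releases ammonia and α-ketoglutarate, measured 36.1, 34.4, 36.7 and 35.7 FPKM in FTbR2KO, against 32.3, 37.3, 36.7 and 38.2 FPKM in TbR2fl/fl. Its coefficient of variation of 2.78% was the lowest of the 8 genes in FTbR2KO, and TbR2fl/fl 5 held the lowest value. Glud1 differed by -0.014 on the log2 scale (SE 0.081, 95% confidence interval -0.20 to 0.17, limma adjusted p = 0.972). Glul, glutamine synthetase, measured 34.0, 24.1, 28.9 and 32.0 FPKM in FTbR2KO, against 31.9, 28.8, 37.9 and 21.6 FPKM in TbR2fl/fl. Its libraries spread widely and the FTbR2KO values lay inside the range of TbR2fl/fl. Glul differed by 0.0025 on the log2 scale (SE 0.17, 95% confidence interval -0.38 to 0.39, limma adjusted p = 0.998), and the interval is about as wide on either side of 0. Neither gene passed the test. Pseudogene copies named for the enzymes (Glud-ps, Got2-ps1 and Glns-ps1) stayed at or under 0.847, 0.430 and 0.154 FPKM.

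Neither of the 2 transporters passed, and their group means differed in opposite directions. Slc1a5, which exchanges glutamine and other neutral amino acids across the plasma membrane, measured 62.1, 40.5, 50.5 and 54.0 FPKM in FTbR2KO, against 59.5, 57.5, 58.5 and 56.3 FPKM in TbR2fl/fl. Of the 4 FTbR2KO libraries, 3 lay below all TbR2fl/fl values and FTbR2KO 1 above them. The coefficient of variation was 17.2% in FTbR2KO and 2.37% in TbR2fl/fl, and the difference in spread was not tested. Slc1a5 differed by -0.18 on the log2 scale (SE 0.12, 95% confidence interval -0.45 to 0.10, limma adjusted p = 0.705). With 1 library left out the difference ran from -0.27, without FTbR2KO 1, to -0.066 (limma adjusted p = 0.971), without FTbR2KO 2, the lowest library. Slc38a2, a sodium-coupled carrier that brings alanine, glutamine and other small neutral amino acids into the cell, measured 39.4, 35.0, 41.7 and 27.0 FPKM in FTbR2KO, against 34.1, 33.8, 25.2 and 27.1 FPKM in TbR2fl/fl. Here 3 FTbR2KO libraries lay above all TbR2fl/fl values and FTbR2KO 4 among them. Slc38a2 differed by 0.24 on the log2 scale (SE 0.15, 95% confidence interval -0.11 to 0.58, limma adjusted p = 0.674). With 1 library left out the difference ran from 0.16, without TbR2fl/fl 7, to 0.36 (limma adjusted p = 0.321), without FTbR2KO 4. Exact permutation tests of the FPKM means, 7 in all with that of Gpt, gave p = 0.171 for Slc38a2, 0.257 for Slc1a5, 0.400 for Got1, 0.657 for Got2, 0.743 for Glud1 and 0.971 for Glul.

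By level per gene length, the order in FTbR2KO was Slc1a5 (51.8 ± 8.92 FPKM), Slc38a2 (35.8 ± 6.43), Glud1 (35.7 ± 0.994), Glul (29.8 ± 4.34), Got2 (11.8 ± 0.909), Got1 (7.47 ± 1.21), Gpt2 (5.83 ± 0.669) and Gpt (0.674 ± 0.138). Between neighbours in that order the ranges of Slc1a5 and Slc38a2, of Slc38a2 and Glud1, and of Got1 and Gpt2 overlapped. In TbR2fl/fl the order was Slc1a5 (58.0 ± 1.37 FPKM), Glud1 (36.1 ± 2.63), Slc38a2 (30.1 ± 4.58), Glul (30.1 ± 6.78), Got2 (12.2 ± 1.45), Got1 (8.61 ± 2.05), Gpt2 (1.51 ± 0.262) and Gpt (0.705 ± 0.127). There the ranges of Glud1 and Slc38a2, of Slc38a2 and Glul, and of Got2 and Got1 overlapped. Gpt2 ranked seventh in both groups. In FTbR2KO its range met that of Got1, with Got1 higher in 3 of 4 libraries, whereas in TbR2fl/fl Got1 was higher in 4 of 4. This too rests on the values that chose Gpt2.

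**Figure D3:**
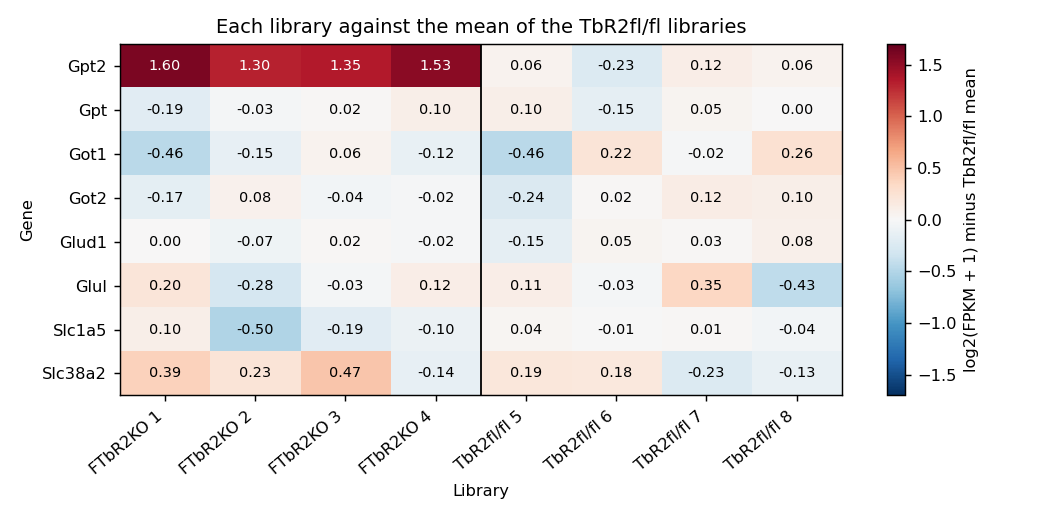
Log2(FPKM + 1) of each gene (rows) in each library (columns) minus the mean of the 4 TbR2fl/fl libraries; red is higher, blue lower and the printed value is the difference. Gpt2 runs from 1.30 to 1.60 in FTbR2KO, and Got1 is lowest, at -0.46, in FTbR2KO 1 and TbR2fl/fl 5.

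Among themselves the partner genes varied in a few groups. With the group means removed, Pearson's r over the 8 libraries was 0.79 for Got1 with Glud1, 0.78 for Got1 with Got2 and 0.62 for Got2 with Glud1. For Glul with Slc1a5 it was also 0.62. The lowest values among partner genes were -0.57 for Got2 with Slc1a5, -0.56 for Got2 with Slc38a2 and -0.53 for Got1 with Glul. Got1 also followed the first component over the 8 libraries (r = 0.94), as did Got2 (0.82) and Glud1 (0.64), while Glul ran against it (-0.60). That component sets FTbR2KO 1 and TbR2fl/fl 5 apart, so these values share the libraries that stand apart and are given as a description. Gpt2 had an r of 0.62 with Slc1a5, 0.45 with Glul and -0.51 with Got1 on the same footing, and its r with the first component was -0.25.

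Among 10405 named protein-coding genes, the 5 whose level ran most like Gpt2 over the 8 libraries were Prm1 (r = 0.97), Chml (0.96), Tgfbr2 (0.95), Dpp8 (0.95) and Nf2 (0.95). All 5 were higher in FTbR2KO, as any gene most like Gpt2 must be. With the group means removed, r was 0.092 for Prm1, 0.72 for Chml, 0.74 for Tgfbr2, 0.64 for Dpp8 and 0.24 for Nf2. The 3 that ran most against it were Pmm1 (r = -0.95), Shc1 (-0.95) and Creb3l3 (-0.94). Creb3l3 averaged 0.817 ± 0.113 FPKM in FTbR2KO and 1.54 ± 0.0962 FPKM in TbR2fl/fl. It was tested only through TbR2fl/fl, as Prm1 was only through FTbR2KO. With the group means removed the highest were Asap2 (r = 0.98), Mtmr11 (0.97) and Gpatch11 (0.95), and over all 8 libraries Mtmr11 had an r of only -0.015. Each value rests on the same 8 libraries and, unless group means were removed, on the same split into groups.

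None of the wider pathway passed in the limma fit, in which 0.0171% of all 11667 tested genes did. Counts of 0 in short lists therefore say little about these genes. Of 30 further alanine, aspartate and glutamate enzymes 19 were tested, 0 passed in either direction, 11 lay above 0 and 8 below, with a median log2 fold change of 0.021 against -0.0045 over all tested genes. That median was -0.031 without TbR2fl/fl 5 and 0.061 without TbR2fl/fl 8, so its sign rests on single libraries. At an unadjusted p under 0.05 there was 1 of the 19 enzymes (Nit2), against 8.61% of all tested genes. Gfpt2, which feeds glutamine into hexosamines, averaged 54.9 ± 10.9 FPKM in FTbR2KO and 43.4 ± 7.18 FPKM in TbR2fl/fl (log2 fold change 0.33, limma adjusted p = 0.592, and 0.21 without FTbR2KO 3). Nit2, an omega-amidase, averaged 4.49 ± 0.540 FPKM in FTbR2KO and 5.40 ± 0.451 FPKM in TbR2fl/fl, and Asl, argininosuccinate lyase, 2.34 ± 0.251 FPKM in FTbR2KO and 2.72 ± 0.0928 FPKM in TbR2fl/fl. Asparagine synthetase, Asns, varied more within groups than between them, at 3.20 ± 1.34 FPKM in FTbR2KO and 3.02 ± 1.04 FPKM in TbR2fl/fl.

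Of 21 further transporters of these amino acids 11 were tested and 0 passed, with 4 above 0, 7 below and a median of -0.069 (-0.10 without TbR2fl/fl 5, -0.024 without TbR2fl/fl 6). At an unadjusted p under 0.05 there were 0 transporters, against 8.61% of all tested genes. Slc38a10 averaged 40.2 ± 3.02 FPKM in FTbR2KO and 44.3 ± 2.44 FPKM in TbR2fl/fl. Slc38a7, a lysosomal glutamine exporter, averaged 4.82 ± 0.524 FPKM in FTbR2KO and 5.48 ± 0.721 FPKM in TbR2fl/fl, and Slc36a1, a lysosomal amino acid carrier, differed by 0.12 on the log2 scale (SE 0.092). The cystine-glutamate exchanger gene Slc7a11 was nearly silent, at 0.0455 ± 0.0243 FPKM in FTbR2KO and 0.0271 ± 0.0260 FPKM in TbR2fl/fl. Among mitochondrial carriers and malate-aspartate shuttle genes 9 of 11 were tested and 0 passed (4 above 0, 5 below, median -0.0021). Of the 9, 0 had an unadjusted p under 0.05, against 8.61% of all tested genes. The median of this list was -0.084 without TbR2fl/fl 5 and 0.037 without TbR2fl/fl 8. The mitochondrial glutamate carrier Slc25a22 averaged 3.49 ± 0.109 FPKM in FTbR2KO and 3.43 ± 0.209 FPKM in TbR2fl/fl. Ogdh, which consumes α-ketoglutarate, differed by 0.16 on the log2 scale (SE 0.091), and Slc25a10, the dicarboxylate carrier, by -0.041 (SE 0.14).

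Pyruvate is the partner substrate of Gpt2. Of 19 genes that handle it 18 were tested and 0 passed, with 6 above 0, 12 below and a median of -0.063 (-0.091 without TbR2fl/fl 7, -0.014 without TbR2fl/fl 8). Of all tested genes, 48.8% lay above 0. At an unadjusted p under 0.05 there were 3 of the 18 (Pcx, Mpc2 and Pck2), against 8.61% of all tested genes. Pcx, pyruvate carboxylase, measured 4.17, 3.67, 4.35 and 4.53 FPKM in FTbR2KO, against 4.73, 5.06, 4.64 and 5.22 FPKM in TbR2fl/fl. Its groups did not overlap, which 4.41% of tested genes share, but its limma adjusted p was 0.571. Mpc2, a subunit of the carrier that brings pyruvate into mitochondria, averaged 3.97 ± 0.345 FPKM in FTbR2KO and 4.77 ± 0.485 FPKM in TbR2fl/fl (limma adjusted p = 0.571), and its partner Mpc1 5.71 ± 0.665 FPKM in FTbR2KO and 5.67 ± 0.448 FPKM in TbR2fl/fl. Pck2, the mitochondrial phosphoenolpyruvate carboxykinase, averaged 6.07 ± 0.560 FPKM in FTbR2KO and 7.46 ± 0.818 FPKM in TbR2fl/fl. Pdk4, a kinase that restrains pyruvate dehydrogenase, differed by -0.052 on the log2 scale (SE 0.25) and Ldha, a lactate dehydrogenase subunit, by -0.12 (SE 0.27).

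In other cell types Gpt2 is known as a target of ATF4, so 29 genes of the amino acid stress response were read beside it. Of these 26 were tested and 0 passed, with 13 above 0, 13 below and a median of -0.0021. At an unadjusted p under 0.05 there were 2 of the 26, Ddit4 and Pck2, against 8.61% of all tested genes. Pck2 is also among the pyruvate genes. Atf4 measured 82.5, 86.6, 91.6 and 85.6 FPKM in FTbR2KO, against 73.3, 94.5, 92.7 and 83.7 FPKM in TbR2fl/fl, a log2 fold change of 0.015 (SE 0.10). Ddit4, an inhibitor of mTORC1, averaged 38.2 ± 8.09 FPKM in FTbR2KO and 55.6 ± 8.42 FPKM in TbR2fl/fl (log2 fold change -0.54, SE 0.16, limma adjusted p = 0.571). Nupr1, a stress-induced nuclear protein, averaged 34.3 ± 1.98 FPKM in FTbR2KO and 40.3 ± 5.09 FPKM in TbR2fl/fl. The list ranged from -0.54 to 0.15, and its median was -0.10 without TbR2fl/fl 5 and 0.017 without TbR2fl/fl 6.

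**Figure D4:**
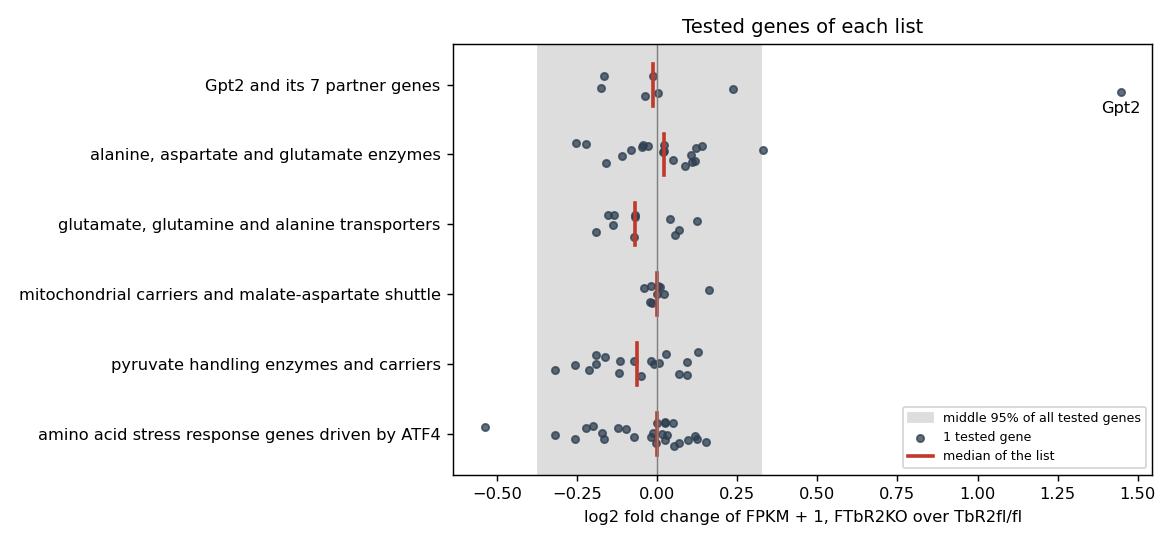
Log2 fold change of FPKM + 1 in FTbR2KO over TbR2fl/fl (x axis) for each tested gene of 6 lists (rows); red bars are list medians and the grey band holds the middle 95% of all 11667 tested genes, from -0.37 to 0.32. Gpt2 lies far to the right, Ddit4 (-0.54) left of the band and Gfpt2 (0.33) at its right edge.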

How the data were processed

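RNA of PDGFRα-sorted infarct fibroblasts was sequenced as poly(A) libraries, per the labels' protocols. The deposited values are the authors' gene-level FPKM. Tools listed without roles in the submitters' processing notes are HTSeq 0.6.1, Cufflinks 2.1.1, TopHat2 2.0 and CASAVA, with the builds mm10 and GRCm38.p6. The sources used here do not say whether strand was used in counting. The gene length in bases is also the authors', per the file headers (another value on its own scale), and equalled the merged exons of GENCODE M21 for all 8 genes. FPKM times gene length was a whole multiple of 1 step per library for 100% of nonzero values (within 0.01), so reads per gene could be recovered; they serve for depth and for 1 alternative.

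Genes with at least 1 FPKM in at least 4 of 8 samples were tested with limma 3.58.1 (R 4.3.3) on log2(FPKM + 1), with trended variance and Benjamini-Hochberg adjustment over all 11667 tested genes, two-sided, at 0.05. Single genes were compared by exact permutation. The fit was run on simulated counts with the same dispersion for every gene and no libraries that stood apart. That run cannot show how the fit does with libraries such as these. Nothing in the labels says that samples are separate animals, and the p-values cover only the spread among these 8, which may be technical. No samples were paired: the labels number them 1 to 4 and 5 to 8.

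The 8 genes, the 5 further lists, the markers and the rule for naming genes were chosen with earlier results of these data known. Named are the 8 genes, the 3 genes with the smallest p in each list, 8 genes fixed by name, Tgfbr2, and the genes most like Gpt2 by Pearson's r. A further gene that the rule names is not reported here. Dnaja2, 4921524J17Rik and the pseudogene copies were added for their position or name. Alternatives changed the pseudocount, filter, scaling, weighting, block, covariate or libraries.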

Additional observations from a re-analysis of the deposited data

How the results depend on the processing

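The log2 fold change of Gpt2 stayed between 1.36 and 1.97 over 21 alternatives. It was 1.89 with a pseudocount of 0.1, 1.92 in TPM and 1.97 with voom on recovered reads, and 1.37 to 1.49 with 1 library left out. Each alternative used libraries that chose Gpt2 and is no further test of it. The call that chose it was lost in 1 alternative, without FTbR2KO 1 and TbR2fl/fl 5 together (limma adjusted p = 0.0611, log2 fold change 1.42). There limma called 0 genes, with 1197 at an unadjusted p under 0.05. The number of called genes was 1 with a filter at FPKM 5, 1 without FTbR2KO 1, 2 or 3 in turn and 6 without FTbR2KO 4, so 1 to 6 over all leave-one-out fits. It was 2 or 3 otherwise. The gene called with the filter at FPKM 5 was Gpt2. It passed that filter only through FTbR2KO (5.17 to 6.56 FPKM, against 1.12 to 1.71 FPKM in TbR2fl/fl).

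No partner gene passed in any alternative, and Got1, Slc1a5 and Slc38a2 kept their sign in all 21. TPM, which divides by summed FPKM, moved the median of all genes to 0.15. The 57-base Gm23935 took 8.12% to 16.7% of that sum in FTbR2KO and 13.9% to 24.7% in TbR2fl/fl, and its part in the shift was not tested. TPM values are to be read against that shift: 0.12 for Got2, 0.15 for Glud1, 0.024 for Slc38a10, 0.11 for Slc25a10, 0.085 for Pdk4 and 0.048 for Ldha, all with the sign turned. List medians in TPM were 0.18 for enzymes, 0.082 for transporters, 0.16 for mitochondrial carriers, 0.083 for pyruvate genes and 0.15 for ATF4 genes. Other settings turned the sign of values near 0, and none of these passed; the cause was not tested. With the macrophage covariate Glud1 was at 0.00056, Glul at -0.17, Slc25a10 at 0.032, Mpc1 at -0.0076 and Ldha at 0.068. The cardiomyocyte covariate put Got2 at 0.016, Glul at -0.064, Slc25a10 at 0.058 and Ldha at 0.071. Glul was at -0.0034 with the Xist covariate and -0.0023 with voom, and Glud1 at 0.021 after quantile normalization. Array weights gave -0.045 for Asns, -0.044 for Atf4 and -0.022 for Mpc1. Without FTbR2KO 1 and TbR2fl/fl 5 together Glul was at -0.027, Slc25a22 at -0.017, Atf4 at -0.037 and Mpc1 at -0.014. Leaving out 1 library moved Got2 from -0.12 to 0.0073, Glud1 from -0.066 to 0.013 and Glul from -0.14 to 0.12. For other named genes whose sign turned, the ranges were -0.15 to 0.056 (Slc25a10), -0.0015 to 0.051 (Slc25a22), -0.14 to 0.19 (Asns), -0.059 to 0.062 (Atf4), -0.044 to 0.058 (Mpc1), -0.26 to 0.15 (Pdk4) and -0.32 to 0.075 (Ldha).

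The groups share no sample number, but libraries could be paired by codes in their titles. The labels do not call this a pairing. FTbR2KO 3 and TbR2fl/fl 6 formed 1 pair although their codes are not neighbouring, while the codes of the other pairs are. FTbR2KO 1 and TbR2fl/fl 5, the libraries that stood apart, carry neighbouring codes. With group means removed, the 4 pairs correlated at r = 0.59, 0.078, 0.27 and 0.14 over tested genes. Of these pairs, only FTbR2KO 1 and TbR2fl/fl 5 were each other's closest match in the other group. FTbR2KO 3 and TbR2fl/fl 8, which were not paired, were also each other's closest match. A fit with this replicate block called 2 genes, with 1768 at an unadjusted p under 0.05 against 1004 without it. Gpt2 was 1 of the 2, which repeats the call that chose it on the same libraries. The SE of Got1, which followed the first component, was 0.078 with the block and 0.17 without, and its limma adjusted p 0.369. The SE fell for the other tested partner genes except Glul (0.1777 with the block, 0.1705 without).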
